A study of Mus musculus with 15 samples.

Results

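Distal intergenic peaks are stretches of open chromatin that the authors' annotation places outside genes and away from promoters. They were taken here from 4 deposited tables of islet ATAC-seq, each holding 1 comparison, as every position whose annotation reads Distal Intergenic. This gave 8951 of 41774 listed peaks (21.4%), each 601 bp long, beside 26939 promoter and 4830 intron peaks. Because the same region can be listed in several tables, the distal peaks merge into 3315 separate regions of 13858. The tables held 3025 of 13111 peaks for βKO against control after surgery, 1435 of 7826 for βKO against control before surgery, 2866 of 12767 for after against before surgery in βKO, and 1625 of 8070 for the same in control.

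Distal open sites include enhancers, which bind tissue-specific transcription factors and can act on promoters over long distances, as well as insulators, unannotated promoters and repeats. SWI/SNF (BAF) complexes slide and evict nucleosomes. ARID1A is a DNA-binding subunit of canonical BAF, and in other cell types canonical BAF is known to keep many enhancers open.

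Nuclei came from pancreatic islets of 15 male mice aged 3 months, all of them homozygous for floxed Arid1a (Arid1aFl/Fl) and carrying MIP-rtTA, a transgene that expresses the reverse tetracycline activator from a mouse insulin promoter. Mice called βKO had TRE-Cre as well, so Cre is made where the activator meets doxycycline, while control mice lacked Cre. Doxycycline was given in the drinking water (1 g/L for 2 weeks). Partial pancreatectomy (PPx, removal of part of the pancreas) was done 1 week after withdrawal, and islets were collected 6 days after it or without it. After PPx there were 4 βKO and 4 control mice, and before PPx 3 βKO and 4 control mice. Islets also hold α, δ, PP, endothelial and stromal cells, in which the insulin promoter is not expected to act, and the deletion was not verified here. In such bulk libraries, fewer cells with an open site and a lower signal per cell cannot be told apart.

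Each level below is a log2 concentration, the authors' group mean of normalised reads in the peak, and each change is a difference of 2 such levels, positive when higher in βKO or after PPx. The tables give group means with a p-value and a false discovery rate (FDR) per peak, so no SD between mice and no depth per library can be given. "Opened" and "closed" mean higher and lower at an FDR under 0.05 in the authors' deposited tables. The median distal peak had a standard error between 0.41 and 0.54 on the log2 scale, as implied by the authors' p-values. Genes named beside peaks are the authors' nearest genes, at a median distance of 27755 bp for the 2606 distal peaks of the after-PPx genotype comparison whose gene could be placed in RefSeq. Of these, 143 overlapped the named gene itself as RefSeq places it. For 747 distal peaks of that comparison, the named gene also had the nearest RefSeq start.

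Some distal peaks lay over a transcription start that RefSeq lists. After PPx, 156 of 3025 peaks had their centre within 300 bp of a start, 80 of these starts being of long noncoding RNAs and 76 of protein-coding genes. The sequences below are the 200 bases before the start of 8 such transcripts, taken from RefSeq on GRCm38.p6 and read 5′ to 3′ on the strand of the transcript, and each lies whole within a distal peak that opened in βKO islets after PPx. They are shown because peaks at such starts opened more often than distal peaks elsewhere. Capitals mark matches on either strand to the NFY motif CCAATCA (Gm7072, Zfp825, Zfp869, Gm6712), the ETS motif CCGGAAGT (Gm31342) and the SP/KLF motif GGGGCGGGG (Rufy3). The windows of Zfp775 and Hdac4 hold none of these 3 motifs in the form searched.
Gm7072, chr17:22314843-22315042, minus strand: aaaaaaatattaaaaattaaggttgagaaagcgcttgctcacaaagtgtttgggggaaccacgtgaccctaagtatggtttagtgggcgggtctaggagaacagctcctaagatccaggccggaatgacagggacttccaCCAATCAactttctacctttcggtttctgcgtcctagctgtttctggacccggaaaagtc
Zfp825, chr13:74493962-74494161, minus strand: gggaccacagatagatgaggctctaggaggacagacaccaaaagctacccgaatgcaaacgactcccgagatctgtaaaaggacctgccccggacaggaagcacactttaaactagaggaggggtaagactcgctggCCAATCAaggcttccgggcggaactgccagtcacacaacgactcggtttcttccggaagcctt
Zfp869, chr8:69716903-69717102, minus strand: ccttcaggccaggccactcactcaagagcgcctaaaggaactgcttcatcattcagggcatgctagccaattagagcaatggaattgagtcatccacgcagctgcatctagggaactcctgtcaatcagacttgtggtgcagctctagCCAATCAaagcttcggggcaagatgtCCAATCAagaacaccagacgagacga
Gm6712, chr17:17294243-17294442, plus strand: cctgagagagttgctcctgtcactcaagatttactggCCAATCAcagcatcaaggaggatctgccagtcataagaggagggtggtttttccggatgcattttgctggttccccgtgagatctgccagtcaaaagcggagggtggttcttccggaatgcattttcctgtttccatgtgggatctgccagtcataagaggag
Gm31342, chr15:67039393-67039592, plus strand: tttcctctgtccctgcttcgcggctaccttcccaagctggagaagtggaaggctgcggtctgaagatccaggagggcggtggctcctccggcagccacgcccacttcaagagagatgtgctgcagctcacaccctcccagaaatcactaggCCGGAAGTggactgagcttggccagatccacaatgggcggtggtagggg
Rufy3, chr5:88564840-88565039, plus strand: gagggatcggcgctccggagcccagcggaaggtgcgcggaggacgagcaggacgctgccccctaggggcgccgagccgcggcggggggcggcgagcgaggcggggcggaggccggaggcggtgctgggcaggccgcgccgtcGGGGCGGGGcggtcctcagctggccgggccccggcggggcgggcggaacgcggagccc
Zfp775, chr6:48601807-48602006, plus strand: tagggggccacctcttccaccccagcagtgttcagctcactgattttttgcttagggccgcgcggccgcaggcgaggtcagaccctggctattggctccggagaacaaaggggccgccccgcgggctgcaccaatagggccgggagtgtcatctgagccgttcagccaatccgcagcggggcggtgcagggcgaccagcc
Hdac4, chr1:92180342-92180541, minus strand: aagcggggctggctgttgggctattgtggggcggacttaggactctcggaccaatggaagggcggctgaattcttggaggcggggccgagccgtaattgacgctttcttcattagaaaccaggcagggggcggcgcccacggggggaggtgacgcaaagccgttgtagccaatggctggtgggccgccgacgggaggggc

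Over 300 bases around the start CCAATCA on either strand occurred in 27.4% of the 190 RefSeq windows that lie in distal peaks, in 31.6% of the 19 in opened distal peaks, in 14.7% of the 6768 in promoter peaks and in 7.82% of all 32851 windows. GGGGCGGGG occurred in 13.2%, 15.8%, 24.1% and 11.4% of the same 4 sets, and CCGGAAGT in 2.63%, 5.26%, 10.0% and 3.89%. Windows of neighbouring starts can overlap, so the same letters can count more than once. Among windows in opened distal peaks, those of Zfp869 and Gm51532 overlap, as do those of Rufy3 and Gm42107. The median GC content was 54.3% for windows in distal peaks, 58.0% for those in opened distal peaks, 62.3% in promoter peaks and 52.7% over all windows. A match describes the letters only, and factor binding was not measured.

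After PPx, distal intergenic sites were more accessible in βKO than in control islets, by less than promoters were. The median distal peak had a level of 3.62 in βKO and 3.30 in control islets, and 80.6% of distal peaks had the higher value in βKO. The median change was 0.39 (1.31-fold), with quartiles of 0.09 and 0.67. Listing needed a call in 2 libraries, and 971 of the 3025 distal peaks had been called in βKO libraries and no control library, against 48 in control libraries and no βKO library, so about 1 in 3 was listed through the group where most of them are high. Among the 951 distal peaks called in at least 2 libraries of each group, the median level was 4.33 in βKO and 4.04 in control islets, the median change was 0.32, and 78.0% were higher in βKO. Promoter peaks had a median level of 4.38 in βKO and 3.71 in control islets and a median change of 0.71, intron peaks changed by 0.37, and all peaks of the comparison by 0.61. There were 96 opened distal peaks in the authors' deposited table (3.17%), where 9.88% of all 13111 peaks opened, and 9 distal peaks closed (0.298%), where 0.0839% of all peaks closed. Distal peaks thus made up 7.41% of the 1296 opened peaks and 9 of the 11 closed ones. All 96 opened distal peaks changed by more than the median of all peaks, and 0 of them were called in the approximate normal test of the change relative to that median (smallest adjusted p 0.464). Of the 3025 distal peaks, 2585 had been called by the authors in at least 2 βKO libraries and 1067 in at least 2 control libraries. Before PPx, 842 of 1435 had been called in at least 2 βKO and 947 in at least 2 control libraries.

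**Figure D1:**
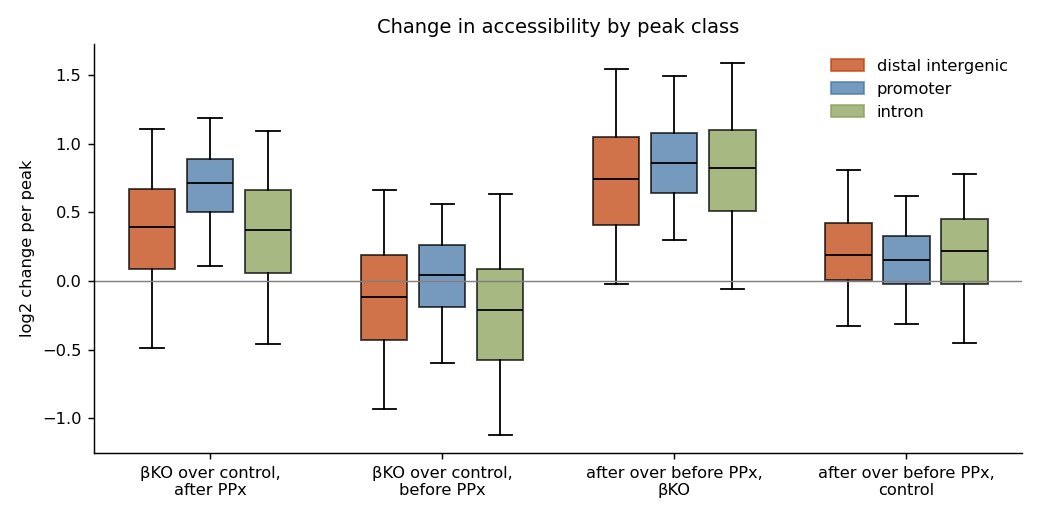
Log2 change per peak for distal intergenic, promoter and intron peaks in the 4 comparisons; boxes show quartiles, lines the median, whiskers the 5th and 95th percentiles of the peaks. The median distal change was 0.39 between genotypes after PPx and -0.12 before, 0.74 over time in βKO and 0.19 over time in control.

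Many weak peaks could not be called. An FDR of exactly 1 stood in the authors' deposited table at 1561 of the 3025 distal peaks (51.6%) and at 23.8% of promoter peaks, and these distal peaks included 147 with an unadjusted p under 0.05. The deposited FDR matched a Benjamini-Hochberg adjustment over the 8577 peaks of the comparison with an FDR under 1 alone, within 2% at 96.0% of them, so peaks with an FDR of 1 appear to have stood outside the adjustment, and the shares of opened peaks depend on that. The median concentration of the 1561 was 3.12, against 3.96 for the distal peaks with an FDR under 1. Among distal peaks with an FDR under 1, 6.56% opened, against 18.8% of promoter peaks. The share of opened distal peaks was 0 of 593 at a concentration under 3, 1.61% from 3 to 4, 8.02% from 4 to 5, 19.5% from 5 to 6 and 3.45% (1 of 29) over 6. Promoter peaks of the same concentrations opened in 0 of 535, 4.91%, 20.2%, 30.8% and 20.9% of cases. The calls therefore do not show whether weak peaks changed less often. The median change was also lower at distal than at promoter peaks within each range, for example 0.45 and 0.73 from 4 to 5.

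**Figure D2:**
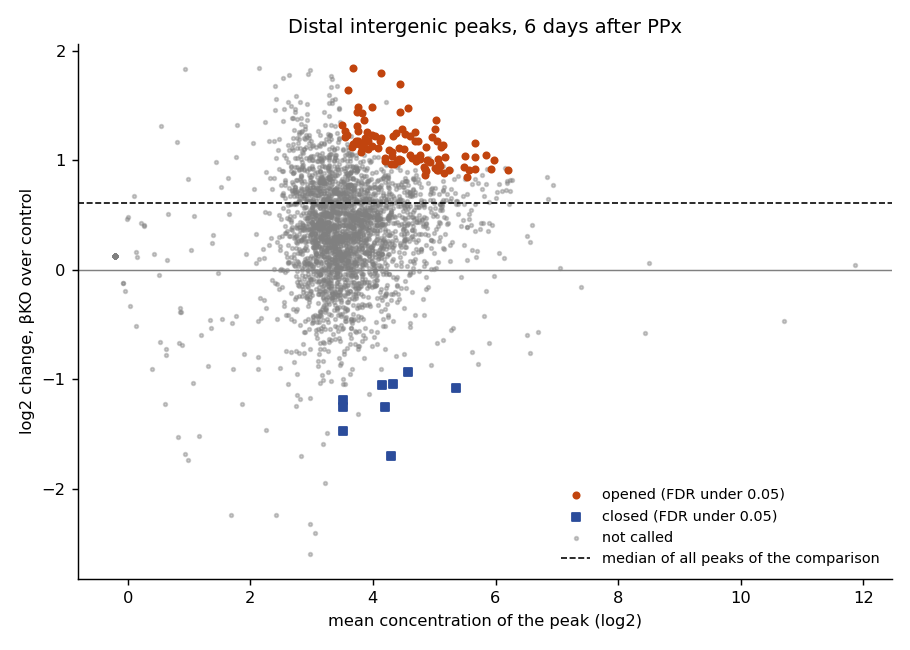
Change between βKO and control islets after PPx (log2) against the mean log2 concentration for each of the 3025 distal intergenic peaks; red circles opened, blue squares closed, grey points were not called, and the dashed line is the median of all peaks at 0.61. The 96 opened peaks had changes from 0.85 to 1.84 and the 9 closed ones from -1.70 to -0.93.

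Among the stronger opened peaks, 10 were named by their change, and those beside genes of known function are given first. Near Gch1, the enzyme that starts tetrahydrobiopterin synthesis, the peak at chr14:47136533-47137133 (16762 bp from the gene) read 5.13 in βKO and 3.65 in control islets (FDR 0.0214 in the authors' deposited table), and it was called in 3 of 4 βKO and 0 of 4 control libraries. Near Eif2ak3, which encodes the endoplasmic reticulum stress kinase PERK, the peak at chr6:70824360-70824960 read 4.98 in βKO and 3.70 in control islets (FDR 0.0265 in the authors' deposited table). Near Btg2, an antiproliferative gene, the levels were 5.45 in βKO and 4.23 in control islets (FDR 0.0214), and a neighbouring peak 5685 bp away, assigned to Gm8618, read 4.75 in βKO and 3.67 in control islets (FDR 0.0471), per the authors' deposited table. The Gm8618 peak was chosen after its values were seen, and its adjusted p was 0.0658 in a Benjamini-Hochberg adjustment over all listed peaks. These 4 peaks had higher group means in βKO by 1.48, 1.29, 1.21 and 1.08 on the log2 scale.

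The other stronger opened peaks named by the rule lay near Gm24968 (5.06 in βKO, 3.36 in control), Gm5274 (4.99 in βKO, 3.54 in control), Zfp944 (5.56 and 4.19), Gm26076 (5.52 and 4.23), Gm10259 (5.18 and 3.93), Repin1 (5.01 and 3.77) and the matricellular protein gene Ccn6 (5.08 and 3.86), in the authors' deposited table. Their changes lay between 1.22 and 1.70. All 10 peaks named by this rule were also called in a Benjamini-Hochberg adjustment over all listed peaks, which called 32 of the 105 opened or closed distal peaks again and lost 73. Of the 96 opened peaks, 26 had not been called in any control library, and 34 were assigned to predicted genes (Gm or Rik names). Among all distal peaks of the comparison 43.8% had such names, and among all its peaks 19.4%. Large changes, of 1.84, 1.64 and 1.49, also stood at weaker peaks, chosen here after their values were seen. They were near Gm26327 (4.32 in βKO and 2.48 in control), near Csnk1a1, a casein kinase gene (4.20 and 2.56), and near Vnn1, a pantetheinase gene (4.55 and 3.06), in the authors' deposited table. Under the adjustment over all listed peaks the Gm26327 peak was not called (adjusted p 0.0595).

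**Figure D3:**
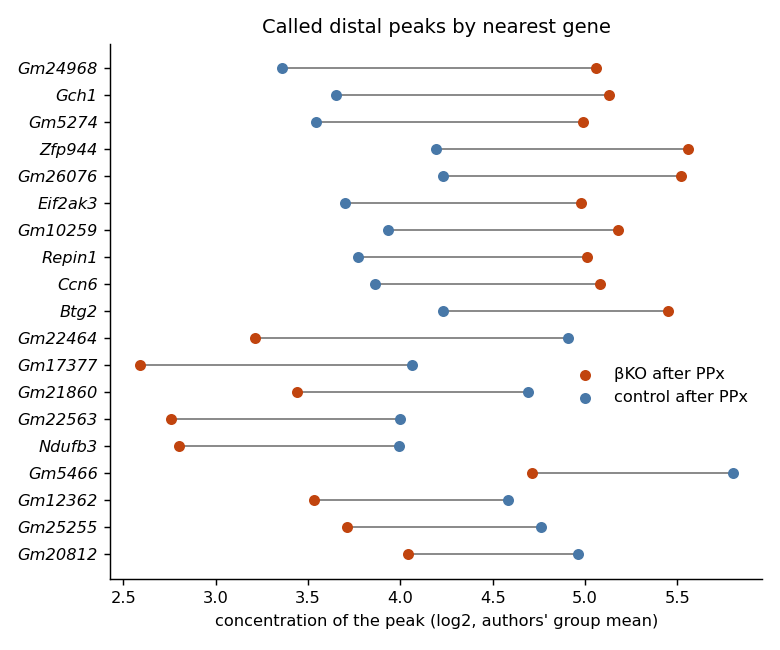
Log2 concentration (the authors' group means) in βKO and control islets after PPx at the 10 opened distal peaks of largest change among the stronger ones and at all 9 closed distal peaks, labelled by nearest gene. The opened peaks lie at 4.98 to 5.56 in βKO and the closed ones at 2.59 to 4.71.

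Before surgery the opened peaks included both directions. Of the 96, 78 overlapped a peak of the genotype comparison before PPx, which shares no library with the one after. There their median level was 4.27 in βKO and 4.28 in control islets, the median change was 0.06, and 46 were higher and 31 lower in βKO, where 38.3% of all distal peaks before PPx were higher and their median change was -0.12. At Gch1 the levels before PPx were 3.75 in βKO and 4.34 in control islets in the authors' deposited table. At Eif2ak3 they were 3.92 in βKO and 4.17 in control islets, and at Repin1 3.86 in βKO and 4.30 in control islets, in the authors' deposited table. Other peaks already stood higher in βKO before PPx, with 5.03 in βKO and 3.68 in control islets at Gm5274, 4.38 and 3.38 at Gm24968, and 5.31 and 4.50 at Gm26076, in the authors' deposited table and each at an FDR of 1.

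Between genotypes after PPx, distal peaks at RefSeq starts changed more than distal peaks far from any start. After PPx the median change between genotypes was 0.60 where a start lay within 300 bp of the peak centre, then 0.47, 0.46, 0.40, 0.34 and 0.29 in successive distance ranges, the last being over 200 kb. Peaks within 1 kb of a start had a median level of 4.07 in βKO and 3.60 in control islets, and 22 of these 209 opened (10.5%), close to the 9.88% of all peaks. Peaks over 1 kb from a start had a median level of 3.60 in βKO and 3.29 in control islets, 71 of 2705 opened (2.62%) and all 9 closed peaks were among them. Among peaks of one range of concentration, 4 to 5, the median change was 0.64 within 1 kb of a start and 0.42 beyond 10 kb. Over time in βKO the median change was 0.80 within 1 kb and 0.72 beyond 10 kb. By concentration these values were 0.47 and 0.65 under 3, 0.85 and 0.73 from 3 to 4, and 0.74 and 0.75 from 4 to 5. Over time in control the median change was 0.21 within 1 kb and 0.19 beyond 10 kb. RefSeq starts on chromosome 18 were not used here, which leaves out 111 of the distal peaks of the genotype comparison after PPx.

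**Figure D4:**
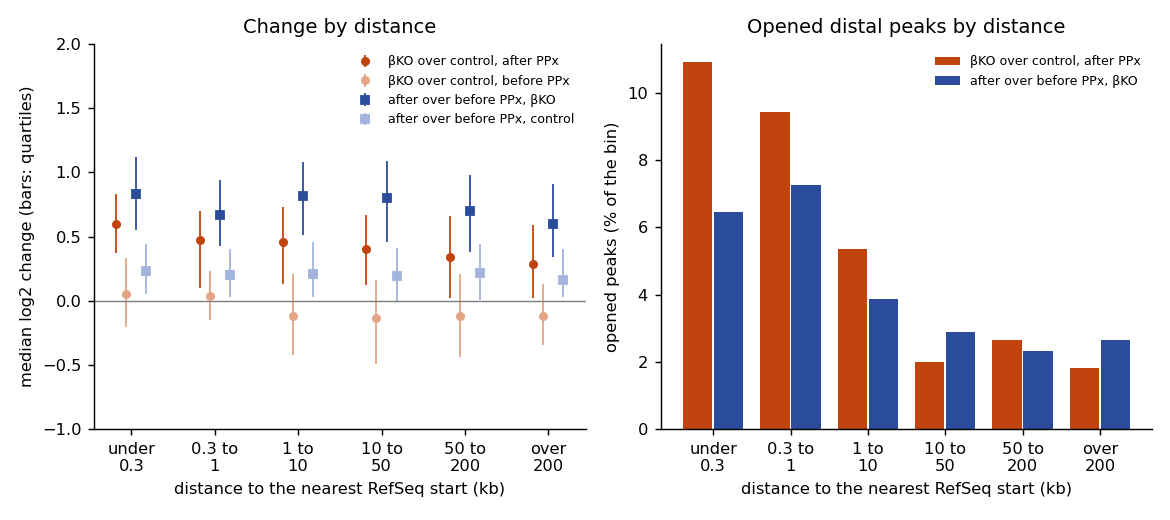
Left, median log2 change with quartiles of distal peaks by distance (kb) of the peak centre to the nearest RefSeq start, in the 4 comparisons; right, the percentage of opened peaks in each range for the 2 comparisons with calls. Between genotypes after PPx the opened share was 10.9% under 0.3 kb and 1.83% over 200 kb.

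The starts shown above lie in such peaks, and most were chosen after their values were seen. The peaks at Gm7072 and Zfp775, named Zfp944 and Repin1 by the authors, are given above. The peak at Gm31342, assigned to Gm2895, read 4.11 in βKO and 2.99 in control islets, in the authors' deposited table. At Zfp825 the levels were 4.59 in βKO and 3.41 in control islets, at Zfp869 6.30 in βKO and 5.39 in control islets, and at Gm6712 6.60 in βKO and 5.68 in control islets, in the authors' deposited table. At Hdac4, a class IIa histone deacetylase gene, they were 5.94 in βKO and 5.03 in control islets, FDR 0.0471 in the authors' deposited table. The peak assigned to Utp3 covers the start of Rufy3 (5.18 in βKO, 4.17 in control), and the peak assigned to Rbm17 covers a start of Pfkfb3, which encodes a regulator of glycolysis (5.13 and 4.13), in the authors' deposited table. In the Benjamini-Hochberg adjustment over all listed peaks, the peaks of Gm31342, Zfp869, Gm6712, Hdac4, Utp3 and Rbm17 were not called (adjusted p between 0.0538 and 0.0659). Distal peaks whose nearest gene has a Zfp (zinc finger protein) name, a group chosen after their values were seen, opened at 8 of 53 (15.1%), where 3.17% of distal and 9.88% of all peaks opened, with a median level of 3.97 in βKO and 3.62 in control islets. Over time in βKO islets 1 of 53 such peaks opened (1.89%), where 3.18% of distal peaks did. After PPx the other name families opened at 3 of 24 (Olfr, olfactory receptors), 0 of 14 (Vmn, vomeronasal receptors), 1 of 31 (microRNAs) and 34 of 1326 (predicted genes, 2.56%).

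Sites that were less accessible in βKO islets after PPx were few and mostly distal. The 9 closed peaks had changes between -1.70 and -0.93, 8 of them were assigned to predicted genes, and 4 had not been called in any βKO library. Of all distal peaks of the comparison, 43.8% were assigned to predicted genes, and of all its peaks 19.4%. At Gm22464 on the X chromosome (chrX:15753602-15754202) the levels were 3.21 in βKO and 4.91 in control islets, FDR 0.0212 in the authors' deposited table. At Gm5466 they were 4.71 in βKO and 5.80 in control islets, at Gm25255 3.71 and 4.76, at Gm12362 3.53 and 4.58, at Gm22563 2.76 and 4.00, and at Gm17377 2.59 and 4.06, in the authors' deposited table. On the Y chromosome, Gm21860 read 3.44 in βKO and 4.69 in control islets and Gm20812 4.04 and 4.96, in the authors' deposited table. The 1 closed peak near a gene with an established product was that of Ndufb3, a subunit of respiratory complex I, at 2.80 in βKO and 3.99 in control islets (FDR 0.0469 in the authors' deposited table). The peaks of Gm22464, Gm5466 and Gm21860 were also called in the Benjamini-Hochberg adjustment over all listed peaks, and the other 6 were not (adjusted p between 0.0522 and 0.0653).

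Before PPx, 7 of these 9 regions were listed, and all 7 had the lower level in βKO, with medians of 3.74 in βKO and 4.52 in control islets. Among all distal peaks before PPx, 38.3% were higher in βKO. At Gm22464 the levels before PPx were 3.52 in βKO and 4.52 in control islets, and at Gm22563 3.19 in βKO and 4.29 in control islets, in the authors' deposited table. At Ndufb3 they were 3.69 in βKO and 3.70 in control islets, in the authors' deposited table.

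Measured against the median change of 0.61, distal peaks made up most of those that stood lower. The approximate test relative to the median called 49 of 13110 peaks lower (0.374%), of which 30 were distal (61.2%), and 2 peaks higher, of which 0 were distal. All 30 had a negative change as deposited, and 20 carried predicted gene names, where 43.8% of all distal peaks did. Of the 30, 11 had not been called in any βKO library. The median level of the 30 was 3.57 in βKO and 4.63 in control islets, and they include all 9 closed peaks. Others were Gm16136 (1.15 in βKO, 3.75 in control), Lrrc7, a synaptic scaffold gene (1.38 and 3.71), Gm23255 (1.93 and 3.89) and Gm24614 (5.23 and 6.08), in the authors' deposited table. Before PPx, 24 of the 30 regions were listed and 21 of them were lower in βKO, with a median change of -0.54. With the median of distal peaks as the centre, 6 peaks were called.

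The strongest distal peaks neither opened nor closed between genotypes. The peak near Pak3 on the X chromosome had a level of 11.89 in βKO and 11.85 in control islets after PPx, and 12.06 in βKO and 11.88 in control islets before, in the authors' deposited tables. The peaks near Gm5614 (10.44 in βKO, 10.91 in control), Dpy19l2 (8.53 and 8.47), Ly6c2 (8.11 and 8.69) and Gm11668 (7.32 and 7.48) followed after PPx, in the authors' deposited table. The 6 distal peaks at a concentration of 7 or more had changes between -0.58 and 0.06. The Ly6c2 peak was called lower after PPx by the approximate test relative to the median of all peaks (adjusted p 0.0329).

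At the other end of the scale, 89 distal peaks after PPx had the lowest value of the table in both groups (-0.13 in βKO, -0.26 in control) and hence 1 identical change of 0.13. Of the 72 distal peaks on the Y chromosome, 59 were of this kind. Without these 89 peaks the median change was 0.40.

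Before PPx, distal sites were on average slightly less accessible in βKO than in control islets, and no single one passed the threshold. The median level was 3.64 in βKO and 3.80 in control islets, and the median change was -0.12, against 0.04 at promoters and -0.21 at introns. Of the 1435 distal peaks, 141 had been called in no βKO library and 97 in no control library, with 3 βKO and 4 control mice. Among the 612 called in at least 2 libraries of each group, the median change was -0.09 and 40.2% were higher in βKO. No distal peak (0 of 1435) had an FDR under 0.05 in the authors' deposited table, where 0.0128% of all peaks did, and every distal peak had an FDR of 1. A Benjamini-Hochberg adjustment over all listed peaks also called 0 distal peaks. At an unadjusted p under 0.05, 14 distal peaks were higher, where 0.843% of all 7826 peaks were, and 62 were lower, where 2.3% of all peaks were. Distal peaks made up 18.3% of the table and 34.4% of its 180 lower peaks at that level.

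The 5 distal peaks of smallest p before PPx were 1 higher and 4 lower in βKO. The higher one was the Gm5274 peak described above (unadjusted p 0.000516). The lower ones lay near Cntnap5b, a neural adhesion gene (1.33 in βKO, 3.71 in control), Fam107a (3.03 and 4.73), Nnt, which encodes a mitochondrial transhydrogenase (1.95 and 3.87), and n-R5s165, a 5S ribosomal RNA copy (3.27 and 4.52), in the authors' deposited table. Their unadjusted p-values lay between 0.000583 and 0.00258, and the FDR of all of them was 1. The peaks near Cntnap5b, Nnt and n-R5s165 had been called in 0 βKO libraries, so they were listed through control libraries alone.

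Over time in βKO islets, distal sites were more accessible 6 days after PPx than before. The median level was 3.66 after and 2.96 before PPx, the median change was 0.74 (1.67-fold), and 94.1% of distal peaks had the higher value after PPx. Of the 2866 peaks, 1192 had been called in no library before PPx and 15 in none after it. Among the 785 called in at least 2 libraries of each group, the median change was 0.60 and 93.1% were higher after PPx. Over all listed peaks, the median change was 0.86 at promoters and 0.82 at introns. There were 91 opened distal peaks in the authors' deposited table (3.18%), where 7.44% of all 12767 peaks opened, and 0 closed, with 1 lower at an unadjusted p under 0.05. Relative to the median change of 0.83, 0 distal peaks were called by the approximate test (smallest adjusted p 0.956). This comparison uses the same βKO libraries after PPx as the genotype comparison, so the 2 sets of values are not independent.

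The 91 opened peaks had changes between 1.09 and 2.79, and 46 had not been called in any βKO library before PPx. The Csnk1a1, Gm24869 and Mtcl1 peaks are given after their values were seen. The widest gap was near Csnk1a1, at 4.20 after and 1.41 before PPx (FDR 0.0077 in the authors' deposited table), with a further opened peak 12017 bp away at 4.04 after and 2.11 before PPx in the authors' deposited table. The peak near Gm24869 read 4.37 after and 1.74 before PPx, and that near Mtcl1, a microtubule crosslinking gene, 3.93 and 1.52, in the authors' deposited table. Among the stronger peaks, named by the rule, the one near Gjd2, which encodes the gap junction protein connexin 36 of β cells, read 4.78 after and 3.03 before PPx (FDR 0.0231 in the authors' deposited table). The peak near Eif4g2, a translation initiation factor gene, read 4.87 after and 3.20 before PPx, in the authors' deposited table. The peaks near Gm16675 (5.43 after, 3.71 before), 5031425E22Rik (4.82 and 3.14) and Ttc7b (4.46 and 2.84) had similar gaps, in the authors' deposited table. The peak near Mbnl1, a splicing regulator gene, read 4.61 after and 2.95 before PPx, and that near Gch1 5.12 and 3.49, in the authors' deposited table. Near Odc1, which starts polyamine synthesis, the levels were 4.09 after and 2.36 before PPx (FDR 0.0410 in the authors' deposited table), a peak chosen here after its values were seen.

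Over time in control islets, no single distal site passed the threshold. The median level was 3.76 after and 3.55 before PPx, the median change was 0.19, and 75.2% of distal peaks had the higher value after PPx. Of the 1625 peaks, 135 had been called in no library before PPx and 58 in none after it. Among the 721 called in at least 2 libraries of each group, the median change was 0.18 and 78.4% were higher after PPx. No distal peak (0 of 1625) had an FDR under 0.05 in the authors' deposited table, and 0 of all 8070 peaks did. At an unadjusted p under 0.05, 67 distal peaks were higher after PPx, where 2.43% of all peaks were, and 0 were lower. Distal peaks were 20.1% of the table and 34.2% of its 196 higher peaks at that level. The smallest p among distal peaks was that of Gm21860 on the Y chromosome, with 4.89 after and 3.59 before PPx (p 7.42e-05, FDR 0.619 in the authors' deposited table). Lrp12, a lipoprotein receptor family gene, had 3.76 after and 2.04 before PPx, Ndufa4, a gene of the respiratory chain, 4.16 and 2.83, Gm26923 4.16 and 2.88, and Gm25886 4.13 and 2.84, in the authors' deposited table. The peaks near Lrp12, Ndufa4 and Gm25886 had been called in 0 libraries before PPx, so they were listed through libraries after PPx alone.

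Across the 1170 distal regions of the genotype comparison after PPx that were matched in the other 3 tables, the median level was 4.23 in βKO and 3.88 in control islets after PPx, and 3.76 in βKO and 3.93 in control islets before. The scale of a group differed between tables by up to 0.23 at identical positions, so differences are taken within a table. The median genotype change was 0.36 after and -0.12 before PPx, and it was larger after PPx at 85.0% of the regions. Of the 1170, 574 (49.1%) were lower in βKO before and higher after. Without regions at the lowest value of both groups after PPx, 1107 remained, and 512 of them (46.3%) had this pattern. Among these 1107 the median genotype change was 0.40 after and -0.15 before PPx, and 84.3% were larger after. The difference between the genotype changes after and before PPx, from comparisons that share no library, was tested at 7503 matched peaks of any class by the approximate normal test. No peak passed an adjusted p under 0.05 (0%), and 1084 had an unadjusted p under 0.05. Of the 1324 distal peaks among them, 111 had an unadjusted p under 0.05, 105 of these with the larger change after PPx. Their median difference was 0.45, against 0.68 at promoters.

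**Figure D5:**
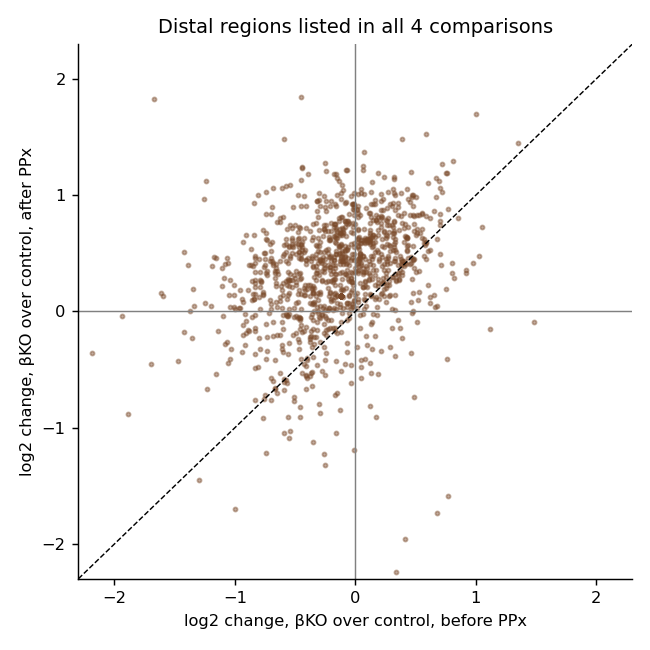
Log2 change between βKO and control islets after PPx (vertical) against before PPx (horizontal) at the 1170 distal regions matched in all 4 comparisons; points above the dashed line had the larger change after PPx. Points above it make up 85.0%, and 574 regions lie to the upper left of both zero lines. Without regions at the lowest value of both groups after PPx, 512 of 1107 lie there.

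None of the distal peaks was called, and 3 are given here after their values were seen. The distal peaks with the smallest p for this difference were near Mbnl1 (a genotype change of 0.97 after and -1.26 before PPx, approximate adjusted p 0.15) and Gch1 (1.48 and -0.60, approximate adjusted p 0.15). At Mbnl1 the levels were 4.62 in βKO and 3.65 in control islets after PPx, and 3.17 in βKO and 4.43 in control islets before, in the authors' deposited tables. The opposite direction was seen near Gm23255, at 1.93 in βKO and 3.89 in control islets after PPx, and 4.00 in βKO and 3.59 in control islets before, in the authors' deposited tables. Its approximate adjusted p was 0.301.

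Distal peaks near islet genes were few. The β cell identity list had distal peaks at 7 of its 35 genes, 10 peaks in all, of which 0 opened, where 3.17% of distal and 9.88% of all peaks did. All 10 had the higher level in βKO, with a median change of 0.61 against 0.39 for all distal peaks. Of these 10, 5 had been called in no control library and so were listed through βKO libraries alone. The strongest lay near Pcsk1, the prohormone convertase gene, at 5.40 in βKO and 4.99 in control islets in the authors' deposited table. Next were Chga, which encodes the granule protein chromogranin A (4.23 in βKO, 3.66 in control), G6pc2, a glucose 6-phosphatase gene (4.08 and 3.52), the zinc transporter gene Slc30a8 (3.95 and 3.28) and Nkx6-1, a β cell transcription factor gene with a pair of peaks (3.85 and 2.33 at the stronger), in the authors' deposited table. The list of other endocrine cells had 6 distal peaks at 4 genes, with changes between 0.57 and 1.12, and 2 of the 6 had been called in no control library. Before PPx 4 distal peaks of this list were listed, 3 of them higher in βKO, with a median change of 0.61 against -0.12 for all distal peaks, and each was called in at least 1 library of both groups. Of the 6, the peak 46348 bp from Sst, the somatostatin gene of δ cells, opened, at 5.32 in βKO and 4.20 in control islets (FDR 0.0294 in the authors' deposited table). The Sst peak read 5.07 in βKO and 4.38 in control islets before PPx, in the authors' deposited table. Both peaks near Etv1 were among the strongest of this list, at 6.53 and 6.41 in βKO and at 5.73 and 5.70 in control islets in the authors' deposited table.

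Over time in βKO islets 0 of the 10 β cell identity peaks opened, where 3.18% of distal and 7.44% of all peaks did. All 10 were higher after PPx, with a median change of 1.0 against 0.74 for all distal peaks. Of the 10, 6 had been called in no library before PPx. The peaks near Nkx6-1 read 3.85 and 3.67 after, against 2.54 and 2.43 before PPx, and that near Pcsk1 5.39 and 4.46, in the authors' deposited table. These peaks use the same βKO libraries after PPx as the values above. Between genotypes before PPx there were 3 distal peaks for this list, with a median change of -0.10, and over time in control there were 2, with a median change of 0.19.

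The counts of the other lists after PPx stand against 3.17% of distal and 9.88% of all peaks opened. The duct list had 1 distal peak, near Ambp, which opened (4.34 in βKO and 3.15 in control islets, FDR 0.0364 in the authors' deposited table). It had been called in 3 βKO and 0 control libraries, so it was listed through βKO libraries alone. The unfolded protein response list had 2 distal peaks, of which that of Eif2ak3 opened. Neural cell adhesion genes, many of which lie in gene-poor regions, had 25 distal peaks at 16 genes, of which 2 opened. These overlapped Cntn3 as RefSeq places it (5.88 in βKO, 4.95 in control) or lay near Pcdh10 (4.41 and 3.14), in the authors' deposited table. The median change of the list was 0.31 against 0.39 for all distal peaks. The peaks of Ambp, Cntn3 and Pcdh10 were not called in the Benjamini-Hochberg adjustment over all listed peaks (adjusted p 0.0506, 0.0647 and 0.0544). The acinar list had 0 distal peaks. None opened among the distal peaks of the endothelial (5 peaks, median change 0.34), stromal (3, 0.68), macrophage and leukocyte (1, 0.41), cell cycle (6, 0.24), EGF, neuregulin and ERBB (1, 0.28), TGF-β and BMP (2, 0.20), immediate early and cAMP response (7, 0.56) and SWI/SNF (1, 0.35) lists. Some peaks of these lists had been called in no control library and so were listed through βKO libraries alone. They were 7 of the 25 neural cell adhesion, 2 of the 5 endothelial and 2 of the 7 immediate early peaks. The same held for 1 of the 6 cell cycle, 1 of the 2 TGF-β and BMP and 1 of the 2 unfolded protein response peaks. Over time in βKO, the macrophage and leukocyte list had 1 distal peak, near the receptor gene Csf1r, which opened (4.03 after and 2.02 before PPx, FDR 0.0282 in the authors' deposited table). It had been called in 2 libraries after and 0 before PPx, so it was listed through libraries after PPx alone. In that comparison 3.18% of distal and 7.44% of all peaks opened.

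Peaks at defining markers of islet cell types were counted over all classes. After PPx, peaks of any class were found at 5 of 10 β cell markers, between 2.90 and 5.62 in βKO and between 2.33 and 4.49 in control islets, and at 5 of 10 markers of other endocrine cells, between 3.70 and 5.32 in βKO and between 2.82 and 4.20 in control islets. There were 0 peaks at the 6 acinar markers, and peaks at 1 of 4 duct, 1 of 4 endothelial, 1 of 4 stromal and 2 of 4 leukocyte markers. At the leukocyte markers they read between 3.50 and 3.99 in βKO and between 2.56 and 3.58 in control islets. The part of cell composition in the changes was not tested.

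Opened distal peaks were also set beside the promoter peaks of the same named gene. After PPx, 35 of the 96 opened distal peaks had a promoter peak of the same named gene, and 3 of these promoters opened (8.57%). For the other 2929 distal peaks, 932 had such a promoter peak and 163 of those opened (17.5%). Over time in βKO islets the shares were 16.2% (6 of 37) and 8.3% (73 of 880). Over all promoter peaks, 14.3% opened between genotypes after PPx and 9.72% over time in βKO. The counts are of distal peaks, so 1 promoter can count for several of them. The difference between the shares of opened and other distal peaks was not tested.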

How the data were processed

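ATAC-seq libraries of 15 mice were read as single ends of 75 bp from 40000 islet cells each, transposed at 37 °C for 30 min, per the labels' protocols. The tools named in the submitters' processing notes are BWA, cutadapt, MACS, ChIPseeker and DiffBind, and the build is mm10 (GRCm38). Their versions, their order, the settings of peak calling and whether reads were shifted to the Tn5 cut site are not stated in the notes used here.

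Per the file headers, each peak of the deposited tables has a log2 concentration over all libraries, one for either group, and a log2 fold, all normalised by the authors. The deposited tables also hold the authors' p-value and FDR per peak and, per the file headers, the number of libraries of each group in which the peak was called. The deposited log2 fold is control minus βKO, or before minus after, so its sign was turned here, and it matches the 2 group columns subtracted from each other within 0.01. Repeated rows of 1 peak were counted once, and 1 empty row was dropped. Only group means were used, which leaves the depth per library unknown, and p-values reflect the spread between mice as the authors modelled it.

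The members and the 14 gene lists were chosen with earlier results of these data known. Named peaks followed a written rule. It took the 10 called distal peaks of largest change at or above the median concentration of called distal peaks, all called peaks of the rarer direction, called peaks near genes of a list, the 5 strongest and, without calls, the 5 of smallest p. Peaks outside it are said to be chosen after their values were seen. The change and the deposited p-value of a peak gave its standard error, and where p was 0.5 or more or the change under 0.1, the median of 1 of 20 concentration bins was used. These errors gave approximate two-sided normal tests of the change relative to the median of its comparison and of the difference between the genotype changes, with Benjamini-Hochberg adjustment over all peaks tested. 1 peak with a large change at a p of 0.5 or more was left out of the relative test after PPx. Peaks of different comparisons were matched at 1 bp of overlap or more. The tests were run on simulated peaks with independent normal errors drawn from the same derived standard errors. Such peaks cannot show how well the normal approximation or these errors hold in the real data. Starts and sequences are those of RefSeq on GRCm38.p6, and of the 15 motifs searched the 3 printed were chosen after the matches were seen. Chromosome 18 starts were not used. Python 3.11.15, pandas 2.3.3, numpy 2.4.6, scipy 1.17.1 and matplotlib 3.10.9 were used.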

Additional observations from a re-analysis of the deposited data

How the results depend on the processing

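No paired analysis was possible because the deposited tables give group means only, and for the same reason no library was left out. At an FDR under 0.01, 0 distal peaks were called between genotypes after PPx and 2 over time in βKO, against 105 and 91 at 0.05, and at an FDR under 0.1 there were 263 and 500. With a Benjamini-Hochberg adjustment over all listed peaks, 46 were called between genotypes after PPx, of which 32 are among the 105 and 14 had a deposited FDR of 1, and 65 over time in βKO, of which 56 are among the 91. At least 10 kb from a RefSeq start, 58 were called in each of these comparisons, and 52 were called over time in βKO at or above the median concentration. The median change over time in βKO was 0.60 among distal peaks called in at least 2 libraries of each group. Relative to the median of distal peaks in place of all peaks, 6 distal peaks were called after PPx, against 30. These differences follow from the thresholds, centres and peaks kept. The other 67 recomputed values lay within 0.1 of the median change or within 1.5 times of the count given, and 0 reversed. They include the alternatives without peaks at the minimum concentration and without peaks within 1 kb of a RefSeq start, both chosen after seeing the data. The depth per library is unknown, and with 3 or 4 mice a group a lack of calls does not show that groups were alike.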

Other observations

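A further 6 of the opened distal peaks after PPx are given as values, chosen after they were seen. Near Aldh1a3, a retinaldehyde dehydrogenase gene, the levels were 4.04 in βKO and 2.82 in control islets (FDR 0.0469 in the authors' deposited table). Near Sesn3, which encodes a stress-inducible sestrin, they were 4.38 in βKO and 3.01 in control islets, and near Bbc3, the gene of the proapoptotic protein PUMA, 4.04 in βKO and 2.76 in control islets, in the authors' deposited table. Near Tnfaip3, an inhibitor of NF-κB signalling, they were 5.22 in βKO and 4.36 in control islets, in the authors' deposited table. Near Elavl4, a neuronal RNA-binding protein gene, they were 5.52 in βKO and 4.33 in control islets, and near Elovl5, a fatty acid elongase gene, 5.44 in βKO and 4.53 in control islets, in the authors' deposited table. Except for Elavl4, none of these 6 was called in a Benjamini-Hochberg adjustment over all listed peaks (adjusted p between 0.0535 and 0.0667).

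Distal peaks in the first 3.2 Mb of a chromosome, leaving out the Y chromosome, had a median level of 3.95 in βKO and 4.28 in control islets after PPx (13 peaks, median change -0.15), where distal peaks beyond that point changed by a median of 0.39. Before PPx the median change of 10 such peaks was -0.26. None of the 13 opened or closed, and their changes lay between -0.76 and 0.52. The approximate test relative to the median of all peaks called those near Vmn1r-ps151 and Gm27306 lower (adjusted p 0.022 and 0.0336). Chosen after their values were seen, the peak near Gm27306 read 4.78 in βKO and 5.42 in control islets (FDR 0.109), and that near Gm17177 3.59 in βKO and 3.07 in control islets (FDR 1), in the authors' deposited table. On the X chromosome 78 distal peaks had a median change of 0.49 after PPx and 44 had one of -0.12 before. The 13 distal peaks of the Y chromosome above the lowest value had a median change of -0.19 after PPx, and 14 had one of -0.61 before.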
